A study of Homo sapiens with 12 samples.

Results

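The claudins described here are 8 tight junction genes, CLDN1, CLDN2, CLDN3, CLDN4, CLDN7, CLDN12, CLDN15 and CLDN23, taken by symbol from a table of 48162 Ensembl gene identifiers. All 8 were found, and all 8 passed the filter on low counts that left 15630 genes for testing. They were measured in 12 RNA-seq libraries of T84, an established human colon carcinoma line that forms a polarised sheet, grown to confluence in 6-well plates. In the libraries of 4 groups, with 3 libraries each, the culture medium had been replaced by Hanks buffered saline of pH 6.0 for 3 h, of pH 7.4 for 3 h, of pH 6.0 for 6 h or of pH 7.4 for 6 h. All groups, the pH 7.4 controls included, were thus held in saline without culture medium, and the labels name no group in culture medium. Whether libraries of 1 group came from separate cultures is not given in the labels, so the p-values speak to the variation among these libraries, which could be technical.

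Claudins are membrane proteins that span the tight junction and decide which ions and how much water pass between neighbouring epithelial cells. Sealing claudins, here CLDN1, CLDN3, CLDN4 and CLDN7, tighten the junction. CLDN2 and CLDN15 form pores for small cations, and the pore of CLDN2 also lets water through. CLDN12 has been linked to calcium passage and CLDN23, a gene of differentiated colon epithelium, is less well characterised. These last genes were put in neither class. The colonic crypt and surface hold different mixtures of these proteins, and T84 sheets are a common model of the tight barrier they build.

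Libraries held between 13912532 and 24331032 counts. All 12 colonic epithelial markers, among them EPCAM, CDH17 and VIL1, had counts, and the lowest value of any of them in any library was 70.1 CPM (counts scaled to library depth), for CDX1. Their summed CPM was 12581 to 13669 at pH 6.0 against 10277 to 10524 at pH 7.4 at 6 h, with no overlap. At that time 6 of them were higher and 2 lower at pH 6.0, where 47.0% of all tested genes changed. The 10 fibroblast markers summed to 8.51 to 9.61 CPM at pH 6.0 and 9.86 to 13.2 CPM at pH 7.4 at 3 h, and to 8.42 to 12.2 CPM at pH 6.0 and 8.88 to 35.0 CPM at pH 7.4 at 6 h. The 8 leukocyte markers summed to 8.89 to 12.1 CPM at pH 6.0 and 8.40 to 9.97 CPM at pH 7.4 at 3 h, and to 11.6 to 12.4 CPM at pH 6.0 and 8.21 to 10.001 CPM at pH 7.4 at 6 h. MS4A1 was at 0 counts in all 12 libraries, and LYZ was 0.51 ± 0.17 higher (log2, SE) at pH 6.0 at 6 h (adjusted p = 0.0155). Of 7 endothelial markers 6 were found, summing to at most 13.7 CPM in any library. Mitochondrially encoded genes took 7.14% to 7.40% of the counts at pH 6.0 against 7.97% to 8.97% at pH 7.4 at 6 h, and at 3 h the ranges overlapped. The part of these markers and of the mitochondrial share in the claudin results was not tested. In bulk RNA fewer cells of a type and less RNA per cell cannot be told apart.

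Measured per gene length, as the RPKM values (reads scaled by gene length and library depth) made by the authors, the claudins spanned a wide range. At pH 6.0 and 3 h CLDN3 led with 386 ± 64.6 RPKM, then came CLDN4 with 248.6 ± 22.4, CLDN7 with 94.5 ± 9.42, CLDN1 with 26.8 ± 0.429, CLDN2 with 17.7 ± 2.64, CLDN12 with 12.7 ± 2.44, CLDN15 with 5.50 ± 0.169 and CLDN23 with 0.410 ± 0.212 RPKM (SD, n = 3). The order was the same in the control saline. At pH 7.4 and 3 h CLDN3 led with 355 ± 38.4 RPKM, then came CLDN4 with 183 ± 7.38, CLDN7 with 108 ± 5.62, CLDN1 with 36.0 ± 2.42, CLDN2 with 18.005 ± 1.64, CLDN12 with 11.1 ± 0.403, CLDN15 with 7.88 ± 1.21 and CLDN23 with 0.442 ± 0.0662 RPKM (SD, n = 3). No neighbouring genes in that order overlapped in range in either 3 h group. At pH 6.0 and 6 h CLDN4 (528 ± 48.0 RPKM) stood above CLDN3 (466 ± 60.7 RPKM), but their ranges overlapped, as did those of CLDN2 (12.2 ± 0.750 RPKM) and CLDN12 (11.4 ± 0.773 RPKM). At pH 7.4 and 6 h CLDN3 (265 ± 41.0 RPKM) and CLDN4 (221 ± 10.2 RPKM) overlapped, and CLDN1 (83.5 ± 3.23 RPKM) had come up to overlap CLDN7 (92.1 ± 7.22 RPKM). The gene length behind the RPKM of CLDN4 was 4163 bases, 2.46 times its RefSeq length of 1695 bases, so its level relative to the other claudins may be understated to that extent. At the RefSeq length, an alternative chosen after seeing the data, CLDN4 would have 611 ± 54.9 RPKM at pH 6.0 and 449.7 ± 18.1 RPKM at pH 7.4 at 3 h, and 1298 ± 118 RPKM at pH 6.0 and 542 ± 25.0 RPKM at pH 7.4 at 6 h. It would then lead in all 4 groups, with no overlap with CLDN3, so the order of these genes rests on the length used. Its comparisons between groups do not depend on that length.

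Compared with pH 7.4, the sealing claudins at pH 6.0 did not move as one. CLDN4 was higher and CLDN1 lower at both times, CLDN3 was higher at 6 h, and CLDN7 was 1.18-fold higher at 6 h. Both pore-forming claudins were lower at 6 h, CLDN15 already at 3 h. In all, 3 of the 8 claudins changed at 3 h, 1 higher and 2 lower, where 18.8% of all tested genes changed. At 6 h 7 of 8 changed, 3 higher and 4 lower, where 47.0% of all tested genes changed. The CPM ranges of the pH groups did not overlap for 3 claudins at 3 h (33.0% of all tested genes) and for 7 at 6 h (56.6% of all tested genes). The median log2 fold change over the 8 claudins was -0.028 at 3 h and -0.33 at 6 h, against -0.0031 and -0.00076 over all tested genes. Fold changes are edgeR's, pH 6.0 over pH 7.4 or 6 h over 3 h, with the SE after ±, adjusted p-values are corrected over all tested genes, and CPM values use TMM-scaled totals.

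CLDN4, which limits the passage of sodium in many epithelia, had 1115, 915 and 1029 CPM at pH 6.0, against 762, 712 and 729 CPM at pH 7.4, at 3 h. At 6 h it had 2065, 2434 and 2394 CPM at pH 6.0, against 906, 983 and 903 CPM at pH 7.4. All acid libraries lay above all control libraries at each time, and those of 6 h at pH 6.0 above all others. The log2 fold change was 0.47 ± 0.09 at 3 h (adjusted p = 0.000799) and 1.30 ± 0.09, or 2.47-fold, at 6 h (adjusted p = 1.03e-10). The change at 6 h exceeded in size that of 94.2% of all tested genes.

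CLDN3, a sealing claudin, had 578.5, 413 and 461 CPM at pH 6.0, against 487, 396 and 425 CPM at pH 7.4, at 3 h. These groups overlapped, and the log2 fold change of 0.15 ± 0.13 did not pass the test (adjusted p = 0.466). At 6 h it had 540.4, 696 and 621.5 CPM at pH 6.0, against 332, 401 and 294 CPM at pH 7.4. There the groups were apart, and CLDN3 was higher at pH 6.0 by 0.85 ± 0.13 on the log2 scale, or 1.81-fold (adjusted p = 7.01e-05). The pH 7.4 libraries at 6 h averaged 342 ± 54.1 CPM, below the 436 ± 46.3 CPM of pH 7.4 at 3 h (SD), and the time comparison of CLDN3 passed at neither pH.

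CLDN1, whose loss opens the epidermal water barrier in mice, went the other way. It had 94.4, 90.7 and 90.8 CPM at pH 6.0, against 127, 119.9 and 115 CPM at pH 7.4, at 3 h. At 6 h it had 97.4, 106 and 91.1 CPM at pH 6.0, against 292, 286 and 306 CPM at pH 7.4. The groups were apart at both times, and what set 6 h apart was the pH 7.4 libraries, which were above every other library. CLDN1 was lower at pH 6.0 by 0.39 ± 0.08 on the log2 scale at 3 h (adjusted p = 0.00109). At 6 h it was lower by 1.58 ± 0.08, or 2.99-fold (adjusted p = 2.84e-13), a larger difference than in 96.5% of all tested genes.

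CLDN7, which binds the adhesion protein EPCAM and sits along the lateral membrane as well as at the junction, had the smallest pH effect among the sealing claudins at 6 h. Its 3 h libraries had 194, 157 and 185 CPM at pH 6.0, against 211, 191 and 199.9 CPM at pH 7.4, which overlapped (log2 -0.17 ± 0.09, adjusted p = 0.182). At 6 h it had 204, 221 and 212 CPM at pH 6.0, against 181, 193 and 164 CPM at pH 7.4, and rose by 0.24 ± 0.09 (adjusted p = 0.024). That call was lost under scaling by total counts (0.20, adjusted p = 0.0591), with the gene length trend removed (0.16, adjusted p = 0.0626), without the third pH 7.4 library (0.18, adjusted p = 0.141) and without the second pH 6.0 library (0.25, adjusted p = 0.0508). In GENCODE 29, 12.3% of its exon bases also belong to exons of ELP5 or AC003688.1, and whether the counting used strand is not given in the sources used here.

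**Figure D1:**
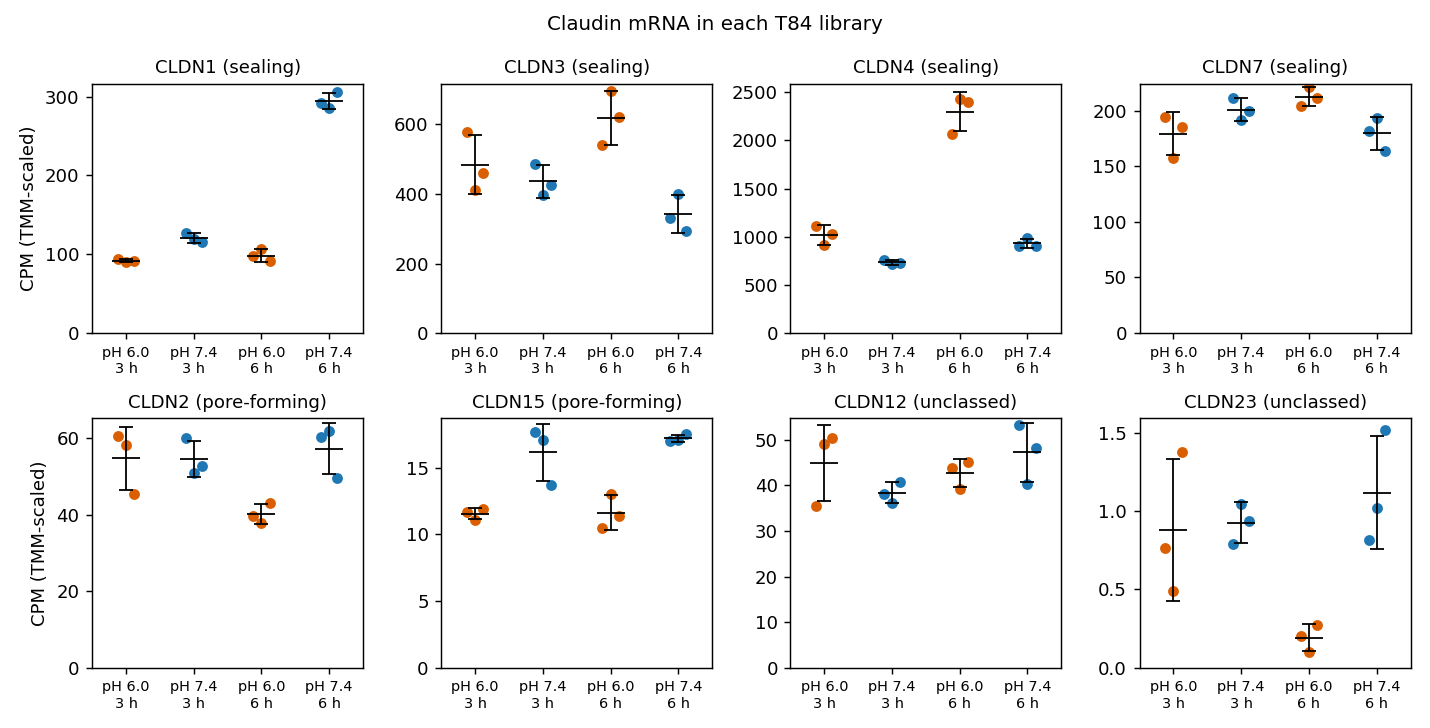
CPM with TMM-scaled totals (vertical axes, each from 0) of the 8 claudins in every library (points), by saline pH and hours. Bars are group means with SD, n = 3. CLDN4 at pH 6.0 and 6 h lies between 2065 and 2434 CPM, above all other libraries, and CLDN1 at pH 7.4 and 6 h lies between 286 and 306 CPM.

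CLDN3 and CLDN4 are neighbours on chromosome 7, with no other gene of the RefSeq table between them. Both were higher at pH 6.0 than at pH 7.4 at 6 h. The genes on either side of the pair were added to the named genes after their values were seen. ABHD11, a mitochondrial hydrolase gene beside CLDN3, had 95.7, 109.6 and 92.0 CPM at pH 6.0, against 68.4, 68.8 and 67.8 CPM at pH 7.4, at 6 h (log2 0.54 ± 0.09, adjusted p = 5.66e-05). METTL27, beside CLDN4, had 38.2, 44.4 and 44.9 CPM at pH 6.0, against 34.2, 41.5 and 33.5 CPM at pH 7.4, and did not pass (0.22 ± 0.11, adjusted p = 0.0987). The pH difference at 6 h passed in 1 of these flanking genes, at a smaller size, where 47.0% of all tested genes changed. That count is not read as a result about this stretch of chromosome 7. Between 3 h and 6 h ABHD11 fell at pH 7.4 (-0.51 ± 0.09, adjusted p = 0.000229). At pH 6.0 its time comparison did not pass (0.12 ± 0.09, adjusted p = 0.381), whereas CLDN4 rose there (1.17 ± 0.09, adjusted p = 2.36e-09).

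The promoters of the sealing claudins with the largest changes at 6 h are given to show how CLDN3 and CLDN4, which rose, and CLDN1, which fell, are laid out. Each is RefSeq's window from 250 bases before to 50 bases after a gene start, in GRCh38.p14, 5′ to 3′ on the gene's strand: chr3:190322397-190322696 (minus strand) for CLDN1, chr7:73770221-73770520 (minus strand) for CLDN3 and chr7:73830746-73831045 (plus strand) for CLDN4. Capitals mark matches on either strand to any of 5 motifs.
CLDN1: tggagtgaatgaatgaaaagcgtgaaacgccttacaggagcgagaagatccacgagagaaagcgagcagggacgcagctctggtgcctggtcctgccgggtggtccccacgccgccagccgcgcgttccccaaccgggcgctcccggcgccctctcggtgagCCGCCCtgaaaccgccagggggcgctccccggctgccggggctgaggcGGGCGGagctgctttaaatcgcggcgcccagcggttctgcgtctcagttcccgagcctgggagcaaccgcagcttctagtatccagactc
CLDN3: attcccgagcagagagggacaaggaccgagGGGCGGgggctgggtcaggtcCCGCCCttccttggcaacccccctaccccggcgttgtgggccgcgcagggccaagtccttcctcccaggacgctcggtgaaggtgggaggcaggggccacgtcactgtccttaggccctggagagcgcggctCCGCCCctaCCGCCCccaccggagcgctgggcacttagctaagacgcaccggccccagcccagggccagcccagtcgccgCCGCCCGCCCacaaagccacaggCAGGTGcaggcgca
CLDN4: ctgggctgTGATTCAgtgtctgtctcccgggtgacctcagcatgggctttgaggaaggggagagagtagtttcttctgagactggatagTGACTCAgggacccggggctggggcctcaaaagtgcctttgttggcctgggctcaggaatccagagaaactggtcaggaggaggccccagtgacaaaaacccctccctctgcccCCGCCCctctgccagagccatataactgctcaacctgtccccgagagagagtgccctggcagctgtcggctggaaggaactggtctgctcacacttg
The motifs were TGANTCA (the AP-1 site), TGACGTCA (the cAMP response element), CAGGTG (an E-box bound by Snail factors), GGGCGG (the GC box) and TATAAA (the TATA box), none of which contains another. CLDN4 held 2 AP-1 matches, TGATTCA at -242 and TGACTCA at -161 counted from the start site, and CLDN1 and CLDN3 held none. AP-1 matches were in 7.71% of all 35116 promoter windows of the table. They were also in a window of CLDN2 and of CLDN15, which were lower at pH 6.0 at 6 h. GC boxes were in all 3 windows shown and in 44.95% of all windows. The Snail E-box was in CLDN3, at 37, and in 20.6% of all windows, the cAMP response element in none of the 3 and in 1.85% of all, and the TATA box in none of the 3 and in 11.5% of all. A match describes letters and says nothing of binding.

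The pore-forming claudins were lower at pH 6.0 at 6 h. CLDN2, which carries cations and water through the junction of leaky epithelia, had 60.8, 58.2 and 45.4 CPM at pH 6.0, against 60.01, 51.0 and 52.9 CPM at pH 7.4, at 3 h. These overlapped fully, with a log2 fold change of 0.0027 ± 0.11 (adjusted p = 0.99). At 6 h it had 39.7, 37.9 and 43.2 CPM at pH 6.0, against 60.3, 61.9 and 49.8 CPM at pH 7.4. The acid libraries lay below all others of the series, and CLDN2 fell by 0.51 ± 0.11 on the log2 scale, or 1.43-fold (adjusted p = 0.000589). Some of its exon bases also lie in exons of RIPPLY1 on the opposite strand.

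CLDN15, the cation pore needed for sodium recycling in the small intestine of mice, was lower at both times. It had 11.7, 11.1 and 11.9 CPM at pH 6.0, against 17.7, 17.1 and 13.7 CPM at pH 7.4, at 3 h, and 10.5, 13.04 and 11.4 CPM at pH 6.0, against 17.0, 17.1 and 17.5 CPM at pH 7.4, at 6 h. No acid library reached the lowest control library. The log2 fold change was -0.49 ± 0.12 at 3 h (adjusted p = 0.00798) and -0.56 ± 0.12 at 6 h (adjusted p = 0.00074). The call at 3 h was lost without the first pH 7.4 library (-0.42, adjusted p = 0.0532).

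Of the unclassed claudins, CLDN12 passed no test and CLDN23 was lower at 6 h. CLDN12 had 35.4, 49.1 and 50.4 CPM at pH 6.0, against 38.2, 36.1 and 40.7 CPM at pH 7.4, at 3 h, and 43.7, 39.1 and 45.2 CPM at pH 6.0, against 53.2, 40.3 and 48.2 CPM at pH 7.4, at 6 h. The groups overlapped at both times, with log2 fold changes of 0.23 ± 0.12 (adjusted p = 0.197) and -0.15 ± 0.12 (adjusted p = 0.334). Without the first pH 6.0 library the 3 h value passed (0.37, adjusted p = 0.0171). Exons of CDK14, GTPBP10 and other genes share 16.3% of the exon bases of CLDN12.

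CLDN23 was near the limit of detection. It had 14, 7 and 22 counts at pH 6.0, against 20, 21 and 16 counts at pH 7.4, at 3 h. At 6 h there were 3, 2 and 4 counts at pH 6.0, against 14, 19 and 25 counts at pH 7.4. The acid libraries at 6 h were below every other library. The fitted log2 fold change was -0.06 ± 0.41 at 3 h (adjusted p = 0.94) and -2.55 ± 0.53 at 6 h (adjusted p = 0.000428). It rests on 9 counts in all at pH 6.0, so its size is imprecise.

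**Figure D2:**
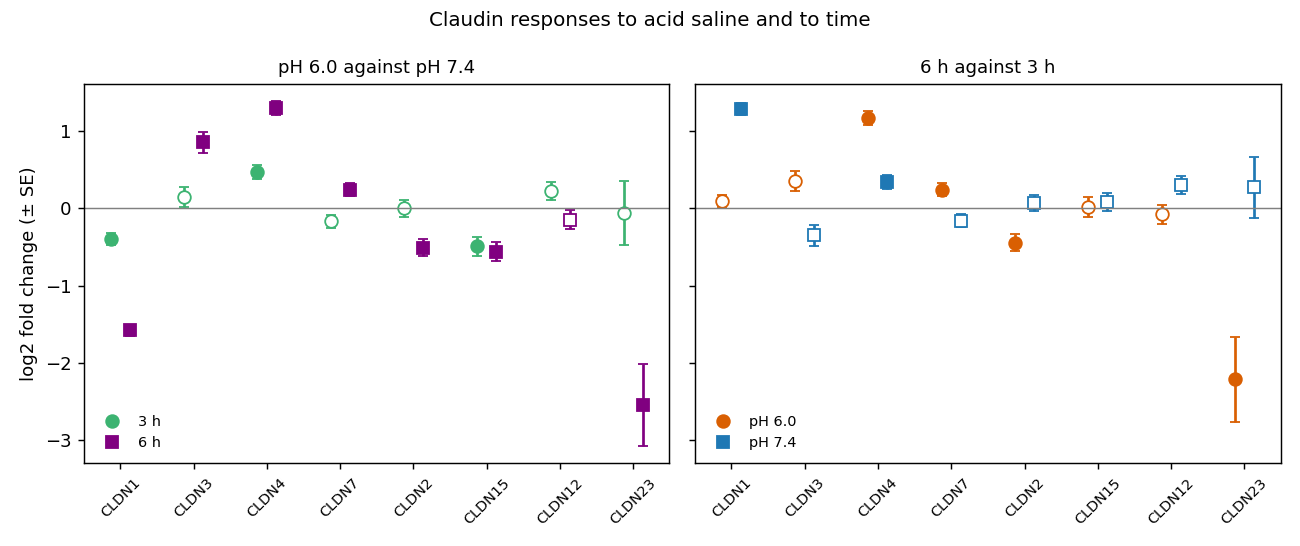
edgeR log2 fold changes (vertical axis, ± SE) of the 8 claudins, at left for pH 6.0 against pH 7.4 at 3 h (circles) and 6 h (squares), at right for 6 h against 3 h at pH 6.0 (circles) and pH 7.4 (squares). Filled symbols passed an adjusted p of 0.05. CLDN4 is at 1.30 and CLDN1 at -1.58 for pH at 6 h, and CLDN1 at 1.28 for time at pH 7.4.

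Added up per gene length, the balance of the classes was shifted toward sealing claudins in acid saline at 6 h. These sums are descriptions of the listed members, with no test. At 6 h the sealing claudins summed to 1127 ± 113 RPKM at pH 6.0 against 662 ± 54.6 RPKM at pH 7.4, and the pore-forming claudins to 17.5 ± 0.711 RPKM at pH 6.0 against 25.9 ± 1.84 RPKM at pH 7.4 (SD, n = 3). Most of the sealing sum was CLDN4 (528 against 221 RPKM) and CLDN3 (466 against 265 RPKM). CLDN7 had 106 RPKM at pH 6.0 against 92.1 RPKM at pH 7.4, and CLDN1 went the other way (27.0 against 83.5 RPKM). The ratio of sealing to pore-forming RPKM was 60.2, 70.3 and 62.9 at pH 6.0, against 24.2, 26.5 and 25.9 at pH 7.4. At 3 h it was 34.3, 27.5 and 36.6 at pH 6.0, against 26.0, 25.4 and 27.8 at pH 7.4, which overlapped in the second acid library. The mean log2 ratio was higher by 0.30 at 3 h and by 1.33 at 6 h at pH 6.0. Being a ratio within a library, it does not depend on library scaling, but it shows unequal change and not which class moved.

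Within the sum of all 8 claudins the makeup was also shifted. CLDN4 made up 45.7% ± 0.969 of the RPKM at pH 6.0 against 31.5% ± 1.23 at pH 7.4 at 6 h, and 31.5% ± 1.07 at pH 6.0 against 25.5% ± 0.968 at pH 7.4 at 3 h (SD). CLDN1 made up 2.35% ± 0.227 at pH 6.0 against 11.98% ± 1.35 at pH 7.4 at 6 h. CLDN2 made up 1.07% ± 0.128 at pH 6.0 against 2.56% ± 0.172 at pH 7.4 at 6 h. CLDN3 made up 48.5% ± 2.42 at pH 6.0 and 49.3% ± 1.59 at pH 7.4 at 3 h, which overlapped. With CLDN4 at its RefSeq length, CLDN4 and not CLDN3 would be the largest part at 3 h, with 53.0% ± 1.24 at pH 6.0 and 45.6% ± 1.27 at pH 7.4, against 33.3% ± 2.02 and 35.95% ± 1.54 for CLDN3. At 6 h CLDN4 would make up 67.4% ± 0.858 at pH 6.0 and 53.1% ± 1.41 at pH 7.4.

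**Figure D3:**
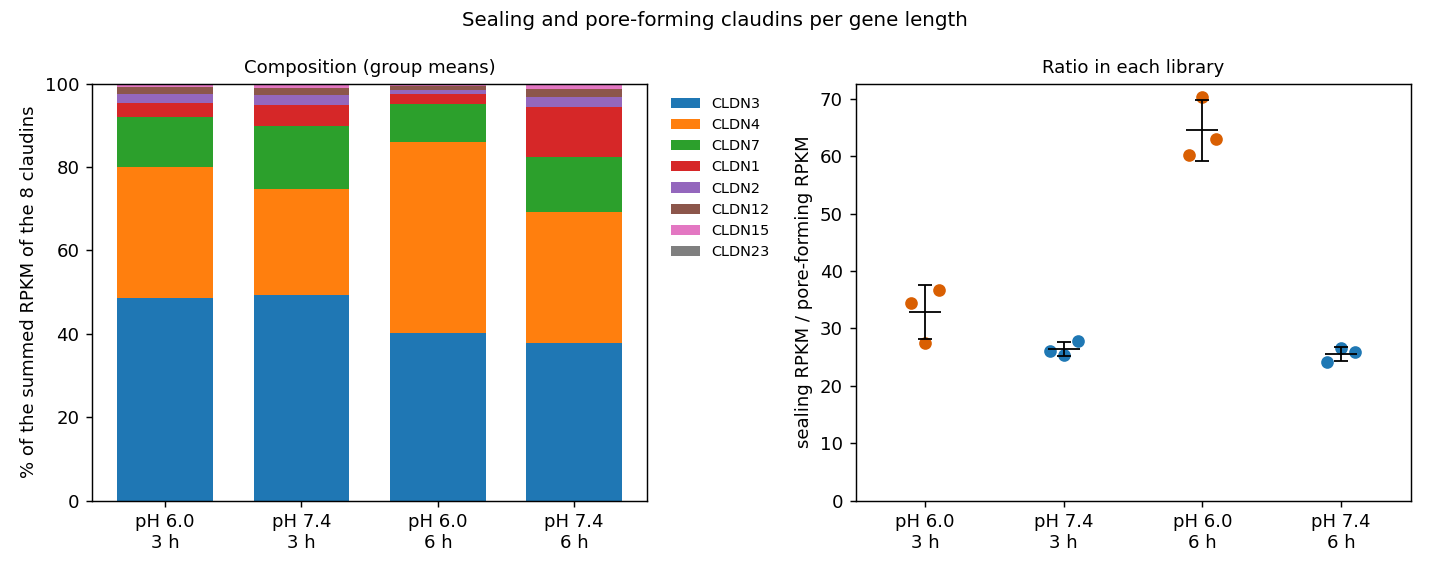
Left, each claudin's share of the summed RPKM of the 8 claudins (vertical axis, percent, group means). Right, summed RPKM of CLDN1, CLDN3, CLDN4 and CLDN7 divided by that of CLDN2 and CLDN15 in each library (points), with mean and SD, n = 3. The ratio lies between 60.2 and 70.3 at pH 6.0 and 6 h and between 24.2 and 27.8 in all pH 7.4 libraries.

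The time comparisons share their libraries with the pH comparisons and are set beside them as values. At pH 6.0, 4 of 8 claudins differed between 6 h and 3 h, 2 higher and 2 lower, where 19.5% of all tested genes did. CLDN4 rose by 1.17 ± 0.09, or 2.25-fold (adjusted p = 2.36e-09), and CLDN7 by 0.25 ± 0.09 (adjusted p = 0.0469). CLDN2 fell by 0.45 ± 0.11 (adjusted p = 0.00636) and CLDN23 by 2.21 ± 0.55 (adjusted p = 0.00661). The CLDN7 call was lost with total counts (0.16, adjusted p = 0.189). In separate fits it was also lost without the first pH 7.4 library at 6 h (0.26, adjusted p = 0.0533). The same held without any 1 of the pH 6.0 libraries other than the first at 3 h, reaching an adjusted p = 0.25 without the second at 3 h. Without the third pH 6.0 library at 3 h the CLDN23 call was lost too (-1.75, adjusted p = 0.0637). CLDN1 stayed at 98.3 ± 7.68 CPM at 6 h against 92.0 ± 2.12 CPM at 3 h (SD), a log2 value of 0.10 ± 0.08 (adjusted p = 0.412). CLDN3, at 0.36 ± 0.13 (adjusted p = 0.0743), passed under DESeq2 (0.37, adjusted p = 0.0282), with no filter (0.37, adjusted p = 0.000659) and with the length trend removed (0.35, adjusted p = 0.0481). It also passed without the first pH 6.0 library at 3 h (0.53, adjusted p = 0.00525), the first pH 6.0 library at 6 h (0.47, adjusted p = 0.044) or the second pH 7.4 library at 6 h (0.37, adjusted p = 0.0421). The median over the 8 claudins was 0.056, against -0.019 over all tested genes, and the groups did not overlap for 4 of them (35.6% of all tested genes).

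In the neutral control saline 2 of 8 claudins differed between 6 h and 3 h, both higher, where 31.6% of all tested genes differed. CLDN1 rose by 1.28 ± 0.08, or 2.44-fold (adjusted p = 2.85e-10), and CLDN4 by 0.34 ± 0.09 (adjusted p = 0.00569). CLDN3 had a value of -0.35 ± 0.13 that did not pass (adjusted p = 0.0579), and CLDN12 one of 0.30 ± 0.12 (adjusted p = 0.0616). CLDN3 passed under DESeq2 (-0.34, adjusted p = 0.0336), with total counts (-0.42, adjusted p = 0.0216), with no filter (-0.37, adjusted p = 0.000282), with the stricter filter (-0.37, adjusted p = 0.0386) and in a fit of these groups alone (-0.35, adjusted p = 0.0263). CLDN12 passed with no filter (0.28, adjusted p = 0.0399) and in the fit of these groups alone (0.30, adjusted p = 0.0417). CLDN7, at -0.16 ± 0.09 (adjusted p = 0.158), passed with total counts (-0.23, adjusted p = 0.0355). CLDN3 and CLDN12 both passed without the second pH 7.4 library at 6 h (-0.48 and 0.41, adjusted p = 0.0153 and 0.0171) or without the first pH 6.0 library at 3 h (-0.36 and 0.29, adjusted p = 0.0171 and 0.0253). CLDN3 alone passed without the second pH 6.0 library at 3 h (-0.35, adjusted p = 0.035) or the first pH 6.0 library at 6 h (-0.36, adjusted p = 0.0467). The median over the 8 claudins was 0.18, against -0.016 over all tested genes, and the groups did not overlap for 2 of them (43.4% of all tested genes).

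The pH effect at 6 h differed from that at 3 h in 6 of 8 claudins, where 29.4% of all tested genes passed this interaction test. The effect was more positive at 6 h for CLDN4 (0.83 ± 0.13, adjusted p = 6.37e-05), CLDN3 (0.70 ± 0.19, adjusted p = 0.0109) and CLDN7 (0.41 ± 0.12, adjusted p = 0.0145). It was more negative for CLDN1 (-1.19 ± 0.11, adjusted p = 1.65e-07), CLDN2 (-0.51 ± 0.15, adjusted p = 0.0154) and CLDN23 (-2.49 ± 0.68, adjusted p = 0.00914). CLDN15, at -0.07 ± 0.17 (adjusted p = 0.801), and CLDN12, at -0.38 ± 0.17 (adjusted p = 0.105), did not pass, but CLDN12 did without the second pH 7.4 library of 6 h (-0.47, adjusted p = 0.0397) or the first pH 6.0 library of 3 h (-0.48, adjusted p = 0.0138). The median over the 8 was -0.22, against -0.030 over all tested genes. The CLDN2 call was lost without any of 4 libraries in turn (adjusted p up to 0.0624), the third at pH 7.4 and the first at pH 6.0 of 3 h and the first and second at pH 6.0 of 6 h. The CLDN7 call was lost with the gene length trend removed (0.26, adjusted p = 0.0504) and without the third pH 7.4 library of 6 h (0.35, adjusted p = 0.0519).

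The table holds 24 numbered claudin genes, of which 11 were tested. Beyond the 8 these were CLDN9, CLDN16 and CLDN20. The other 13 had at most 56 counts over all 12 libraries, and 5 of them had none. CLDN9, a cation-barrier claudin of the inner ear in mice, had 12.02, 13.3 and 15.0 CPM at pH 6.0, against 16.3, 20.7 and 19.2 CPM at pH 7.4, at 6 h. It was lower at pH 6.0 by 0.48 ± 0.13 (adjusted p = 0.00379), with a 3 h value of -0.33 ± 0.13 (adjusted p = 0.0757). CLDN16, a magnesium-linked claudin of the kidney, and CLDN20 averaged no more than 1.15 CPM in any group and passed no pH test. From 3 h to 6 h CLDN16 rose at pH 7.4 (1.62 ± 0.50, adjusted p = 0.016) but did not pass at pH 6.0 (adjusted p = 0.793). CLDND1, a claudin-domain relative, had a log2 value of 0.10 ± 0.09 for pH at 6 h (adjusted p = 0.4). With time it rose at pH 6.0 (0.47 ± 0.10, adjusted p = 0.00109) and at pH 7.4 (0.36 ± 0.09, adjusted p = 0.00547).

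Genes of proteins that bind, anchor or turn over claudins changed in both directions at 6 h. Of the 23 genes listed for these roles 21 were tested, and 5 were higher and 8 lower at pH 6.0 at 6 h, against 2 and 2 at 3 h. Over all tested genes 47.0% changed at 6 h and 18.8% at 3 h, and the list's count at 3 h is near that share. Their median log2 fold change was -0.18 at 6 h. The scaffold TJP1, which ties claudin tails to actin, had 120.1, 111 and 103 CPM at pH 6.0, against 213, 224 and 237 CPM at pH 7.4, at 6 h, with no overlap. TJP1 was lower at pH 6.0 by 1.01 ± 0.09 (adjusted p = 2.62e-09) and its relative TJP3 by 0.33 ± 0.07 (adjusted p = 0.000988). The junction membrane protein OCLN was lower by 0.61 ± 0.09 (adjusted p = 5.5e-06). WNK4, a kinase reported to phosphorylate claudins, was lower by 1.18 ± 0.10 (adjusted p = 3.39e-09). At pH 7.4, TJP1 was higher at 6 h than at 3 h by 0.83 ± 0.08 (adjusted p = 2.59e-07), and at pH 6.0 it did not pass (-0.03 ± 0.09, adjusted p = 0.842). WNK4 (0.72 ± 0.10, adjusted p = 9.74e-06) and OCLN (0.24 ± 0.08, adjusted p = 0.0323) were also higher at 6 h than at 3 h at pH 7.4. At pH 6.0 WNK4 was lower at 6 h (-0.32 ± 0.10, adjusted p = 0.0331), and OCLN did not pass (-0.045 ± 0.088, adjusted p = 0.761).

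Of the same list, the tight junction membrane proteins MARVELD2 (-0.50 ± 0.11, adjusted p = 0.000988) and MARVELD3 (-0.33 ± 0.08, adjusted p = 0.00179) were also lower at pH 6.0 at 6 h. Both were named after their values were seen. EPCAM, which binds CLDN7, had 1676, 1615 and 1716 CPM at pH 6.0, against 1334, 1315 and 1198 CPM at pH 7.4, at 6 h. It was higher at pH 6.0 by 0.38 ± 0.08 (adjusted p = 0.000704). The tetraspanins CD9 (0.62 ± 0.10, adjusted p = 1.85e-05) and CD81 (0.46 ± 0.09, adjusted p = 0.000246) were higher at pH 6.0. So was ST14, the gene of the protease matriptase that cleaves EPCAM (0.47 ± 0.08, adjusted p = 3.66e-05). At pH 7.4 CD9 (-0.35 ± 0.10), CD81 (-0.32 ± 0.09) and ST14 (-0.23 ± 0.08) were lower at 6 h than at 3 h (adjusted p = 0.00836, 0.00981 and 0.0236). At pH 6.0 the time comparison passed for none of them (adjusted p = 0.0609, 0.169 and 0.83).

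Transcription factors reported to act on claudin genes also moved in both directions. Of 25 listed, 24 were found and 19 tested, with 4 higher and 7 lower at pH 6.0 at 6 h and 7 higher and 4 lower at 3 h. Over all tested genes 47.0% changed at 6 h and 18.8% at 3 h. Their median log2 fold change was -0.058 at 6 h and 0.16 at 3 h. SOX9 had 86.4, 83.98 and 84.5 CPM at pH 6.0, against 259.8, 271 and 261 CPM at pH 7.4, at 6 h (log2 -1.63 ± 0.08, adjusted p = 4.81e-13). The crypt factor KLF5 (-1.55 ± 0.08) and the gut endoderm factor GATA6 (-1.33 ± 0.08) were lower at pH 6.0 as well (adjusted p = 4.44e-13 and 1.3e-11). From 3 h to 6 h at pH 7.4, SOX9 (0.87 ± 0.08, adjusted p = 7e-08) and KLF5 (0.48 ± 0.08, adjusted p = 6.34e-05) rose, and GATA6 did not pass (adjusted p = 0.846). At pH 6.0, KLF5 (-0.45 ± 0.08, adjusted p = 0.000186) and GATA6 (-0.59 ± 0.08, adjusted p = 1.77e-05) fell, and SOX9 did not pass (-0.18 ± 0.08, adjusted p = 0.142). ELF3, an epithelial ETS factor, rose by 1.25 ± 0.10 at 6 h (adjusted p = 4.62e-10) and by 0.93 ± 0.09 at 3 h (adjusted p = 4.82e-07). SNAI1, a repressor of claudin genes, was named after its values were seen. It had 1.36, 2.38 and 1.64 CPM at pH 6.0, against 0.407, 0.430 and 0.365 CPM at pH 7.4, at 6 h (log2 2.16 ± 0.48, adjusted p = 0.000793). At 3 h its groups overlapped (0.57 ± 0.47, adjusted p = 0.43), and it did not pass the interaction test (adjusted p = 0.0848). GRHL2 (-0.77 ± 0.09, adjusted p = 6.04e-07) and EHF (-0.52 ± 0.09, adjusted p = 5.6e-05), named likewise, were lower at 6 h, with smaller p-values than SNAI1. Whether any of these factors acts on the claudins was not measured.

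**Figure D4:**
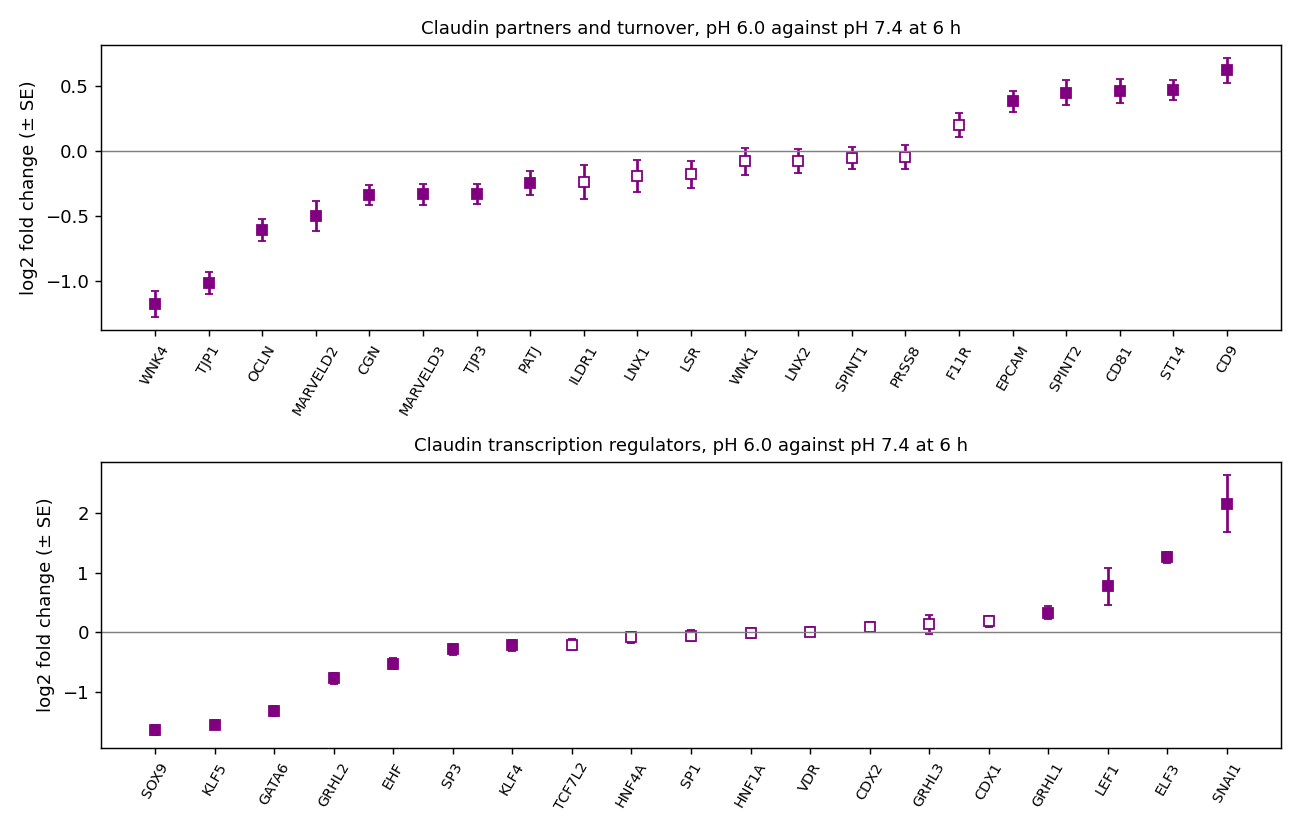
edgeR log2 fold changes (vertical axes, ± SE) for pH 6.0 against pH 7.4 at 6 h, above for the tested genes listed as claudin partners and turnover, below for those listed as claudin transcription regulators, each ordered by value. Filled symbols passed an adjusted p of 0.05. TJP1 lies at -1.01 and CD9 at 0.62, SOX9 at -1.63 and ELF3 at 1.25.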

How the data were processed

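Claudin mRNA was read from a table of read counts per gene deposited by the authors for 12 T84 libraries and from RPKM values the authors made from them. STAR, CASAVA and the build hg19 are named per the submitters' processing notes. Versions, annotation, counting program and use of strand were not given in the sources at hand. Groups came from the sample titles.

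Symbols were found for 45342 of 48162 identifiers, from names tables and GENCODE 29 (GRCh38), which also gave exon overlap. Gene lengths were recovered from counts and RPKM, which gave back 100.0% of the deposited RPKM values to a tolerance of 1e-06. Counts were tested in edgeR 4.0.16 (R 4.3.3) with robust quasi-likelihood F tests, TMM factors and the default filter, in 1 fit of 4 groups with 8 residual degrees of freedom. An adjusted p under 0.05 (Benjamini-Hochberg over all 15630 tested genes) counted as changed. SE is the absolute log2 fold change over the square root of F. CPM and RPKM hold counting error and library scaling, and all 12 replicate pairs differed beyond counting noise (chi-square divided by its degrees of freedom 5.40 to 19.5). Alternatives were DESeq2 1.42.0, median-of-ratios factors, total counts, no filter, 5 CPM in 3 libraries, a fit of the groups compared alone, the replicate number as a block, the gene length trend removed per library (spline, 5 degrees of freedom) and each library left out. The fit was tested on simulated data.

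The members and lists were chosen with earlier results of these data known, and some genes first listed as partners are not reported here. Named are all 8 claudins, other tested claudins, 4 fixed partners with the next 4 by p at 6 h, and the 4 regulators with the smallest p at 6 h. Promoters are RefSeq's (GRCh38.p14), with windows for 7 of the 8 genes used.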

Additional observations from a re-analysis of the deposited data

Results flagged for a closer look

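The 27 named genes counted here leave out MARVELD2, MARVELD3, GRHL2 and EHF. For 15 of 27 named genes the pH effect at 6 h differed from that at 3 h in edgeR's interaction test (log2, effect at 6 h minus effect at 3 h). Over all tested genes 29.4% passed it, and several of the named genes were picked by their p at 6 h, so the count is not read as a result about them. Among the claudins these were CLDN1 (-1.19), CLDN2 (-0.51), CLDN3 (0.70), CLDN4 (0.83), CLDN7 (0.41) and CLDN23 (-2.49). For CLDN1 the difference goes with the pH 7.4 libraries, which averaged 294 ± 10.1 CPM at 6 h against 121 ± 6.09 CPM at 3 h (SD, n = 3). For CLDN4 it goes with the pH 6.0 libraries, at 2298 ± 203 CPM at 6 h against 1020 ± 100.5 CPM at 3 h.

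Among the partners the difference was 0.33 for EPCAM, -0.86 for TJP1, -1.04 for WNK4, 0.61 for CD9 and 0.50 for CD81. Among the regulators it was -0.93 for KLF5, -1.04 for SOX9 and -0.61 for GATA6. For ABHD11, the gene beside CLDN3, it was 0.63.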

How the results depend on the processing

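Of 785 values of single claudins under alternative settings, 721 kept their direction and side of the threshold, 19 fell short of it, 23 passed it and 22 turned. Same-numbered libraries were alike in part at most (correlations from -0.239 to 0.515). For pH at 3 h, pH at 6 h and time at pH 7.4, 2 of 3 libraries matched their own number best, and 1 for time at pH 6.0. With the replicate block 3, 7, 4, 2 and 6 claudins changed with pH at 3 h, pH at 6 h, time at pH 6.0, time at pH 7.4 and in the interaction, as without it. Over all genes the block gave more calls, for pH at 3 h 1671 higher and 1560 lower, against 1489 and 1448. Claudins changed with time at pH 7.4 numbered 4 with total counts, with no filter or with only the groups compared, against 2. Leaving out 1 library gave 2 to 5 claudins for time at pH 6.0 (2 without replicate 3 of 3 h) and 2 to 4 for time at pH 7.4 (4 without the second pH 7.4 library at 6 h or the first pH 6.0 library at 3 h). Over all genes it gave 1648 to 3617 for pH at 3 h, against 2937, with the fewest without the first pH 7.4 library (1661) or pH 6.0 replicate 2 (1649) or 3 (1648), and 1915 to 3408 for time at pH 6.0, against 3050, with 1915 without replicate 3 of 3 h.

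Values near zero turned. For pH at 3 h CLDN2 was -0.029 with total counts, -0.032 with no filter, -0.00103 with the replicate block and -0.087 to 0.12 without 1 library, CLDN23 was 0.010 with the length trend removed and -0.53 to 0.20 without 1 library, and CLDN3 was -0.0042 to 0.25 without 1 library. For time at pH 6.0 CLDN15 was -0.069 with total counts and -0.064 to 0.11 without 1 library, and CLDN12 -0.19 to 0.020. Without 1 library CLDN15 was -0.032 to 0.16 for time at pH 7.4 and -0.14 to 0.066 in the interaction, and CLDN2 was -0.0050 with total counts for time at pH 7.4. The log2 ratio of sealing to pore-forming claudins for pH at 6 h, 1.33, was 1.20 with CLDN12 as pore-forming and 1.51 with CLDN4 at its RefSeq length (chosen after seeing the data). For time at pH 6.0, 0.98, it was 1.21 from counts. For time at pH 7.4, -0.051, it was -0.12 with CLDN12, 0.15 from counts and 0.045 with CLDN4 at its RefSeq length. The cause was not tested. With total counts the median of all genes for time at pH 6.0 was -0.10, against -0.019, with 773 genes higher and 2499 lower, against 1351 and 1699. Depth limits CLDN23, CLDN16, CLDN20 and SNAI1.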

Other observations

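Among all other tested genes, those most like CLDN4 in log2 CPM over the 12 libraries were NR1D1 (Pearson r = 0.99), a clock repressor, KLF10, PIGA, PLAUR, the urokinase receptor gene, and FOSL1, an AP-1 subunit, with r from 0.988 for FOSL1 to 0.995 for NR1D1. Their log2 fold changes at pH 6.0 at 6 h were 1.67 ± 0.11 for NR1D1, 1.16 ± 0.09 for KLF10, 0.85 ± 0.09 for PIGA, 1.56 ± 0.10 for PLAUR and 1.87 ± 0.12 for FOSL1 (SE). Those most like CLDN1 were SLTM (r = 0.989), MARS1, the methionyl-tRNA synthetase gene, GPT2, a mitochondrial alanine transaminase gene, TCP11L2 and SLC1A5, a glutamine transporter gene (r = 0.983). Their log2 fold changes at pH 6.0 at 6 h were -0.65 ± 0.07 for SLTM, -0.72 ± 0.07 for MARS1, -0.98 ± 0.08 for GPT2, -1.45 ± 0.11 for TCP11L2 and -0.80 ± 0.08 for SLC1A5. These r values describe likeness over libraries that share 4 groups and were picked as the highest of all tested genes.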
